A study of Drosophila melanogaster with 21 samples.

Results

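The rows described here are the single transposable element insertions of the Drosophila melanogaster genome that were counted beside the genes in total RNA of embryos. They were taken as every row of the count table whose identifier does not start with FBgn, the FlyBase prefix for genes. There were 6063 such rows among 23932 rows in all, the other 17869 being genes. Of the 6063, 5416 carried an FBti identifier, the FlyBase prefix for one insertion at one place in the genome. Another 162 carried an RR identifier, and the remaining 485 carried FBtr identifiers. The 485 FBtr rows were at 0 in all 12 libraries, had no name in the supplied table and gave no value, so the results concern the 5578 FBti and RR rows. Of the FBti rows, 5414 were named and fell into 127 families. All 162 RR rows were named, and 140 of them had a family name, 54 families in all. A name such as flea{}152 gives the family before the braces and the copy after them.

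The study concerned topoisomerase 3 beta (gene Top3beta), an enzyme that relieves tangles in DNA and RNA by cutting and resealing a strand. Embryos of 4 genotypes gave 3 total RNA libraries each. The genotypes were the allele Top3b26, the allele Y332F, in which a tyrosine is replaced by phenylalanine, delRGG, labelled as a deletion of the RGG part of the protein, and wild type. The labels gave no embryo age and no genetic background. The column names begin with another letter in wild type (C) than in all mutants (D); what the letters stand for is not given in the sources used here, and any difference they mark cannot be told apart from mutant against wild type. Top3beta mRNA was at 22.1 ± 1.11, 125 ± 19.1 and 134 ± 8.35 CPM in Top3b26, Y332F and delRGG, against 114 ± 17.0 CPM in wild type (CPM, counts scaled to a common library size; SD, n = 3 each).

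Transposable elements are stretches of DNA that copy or move themselves. LTR retrotransposons (roo, blood, copia, gypsy and others) and non-LTR retrotransposons (F, HeT-A, R1, R2) move through an RNA copy, DNA transposons (1360, H, pogo, transib3) move as DNA, and INE-1 is an old, short Helitron element present in very many truncated copies. In the fly germ line, Piwi proteins loaded with small RNAs silence many of these elements, and several LTR elements are also transcribed in particular cells of the developing embryo. The near-identical copies of one family share reads, so the split of counts between copies depends on the authors' counting of reads that match several places, which is not given in the sources used here.

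Most insertions had few or no counts. Of the 5416 FBti rows, 3101 (57.3%) had at least 1 count in some library, and among these the median was 5 counts summed over all 12 libraries. Of the 162 RR rows, 143 (88.3%) had at least 1 count, with a median of 9. FBti rows held 74994 counts in all and RR rows 6535, in libraries with 22400118 to 31125584 counts each. RR rows were thus counted more often per row, at 40.3 counts against 13.8 for an FBti row, but far fewer of them exist.

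The summed share of FBti rows was lower in Top3b26 and in Y332F than in wild type, without overlap of the libraries. As CPM of the library's total count, without further scaling (raw CPM), FBti rows held 174.1, 88.4 and 156.3 in Top3b26, 148.6, 116.3 and 226.1 in Y332F, 316.7, 249.4 and 211.9 in delRGG, and 449.7, 284.0 and 539.4 in wild type. All 6 Top3b26 and Y332F libraries lay under the lowest wild-type library. The delRGG libraries overlapped both Y332F and wild type, with delRGG replicate 1 above wild-type replicate 2. The means were 139.6 ± 45.2, 163.7 ± 56.5 and 259.3 ± 53.1 raw CPM in Top3b26, Y332F and delRGG, against 424.4 ± 129.5 in wild type (SD, n = 3 each). This put Top3b26 at 0.329, Y332F at 0.386 and delRGG at 0.611 times the wild-type mean. Neighbours in that order (Top3b26 and Y332F, Y332F and delRGG, delRGG and wild type) had ranges that overlapped. In bulk embryos, fewer cells that transcribe an element and less element RNA per cell cannot be told apart.

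RR rows had the same order of genotype means at a much lower level. They held 12.2, 6.07 and 12.4 raw CPM in Top3b26, 10.7, 9.43 and 15.0 in Y332F, 29.3, 20.7 and 14.5 in delRGG, and 33.2, 22.8 and 72.1 in wild type. The means were 0.240, 0.274 and 0.504 times the wild-type mean in Top3b26, Y332F and delRGG. A single row, R2{}RR48361, held 692 counts in wild-type replicate 3. Without that row the ratios were 0.231, 0.349 and 0.636. For every 100 FBti counts there were 7.27 ± 0.56 RR counts in Top3b26, 7.30 ± 0.755 in Y332F and 8.13 ± 1.20 in delRGG, against 9.59 ± 3.28 in wild type (SD, n = 3 each), and the ranges of Y332F and delRGG overlapped that of wild type, as did that of Top3b26. RR counts were concentrated in few rows: in each library the 10 highest rows held 61.0% to 78.7% of RR counts, but 11.9% to 29.9% of FBti counts.

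**Figure D1:**
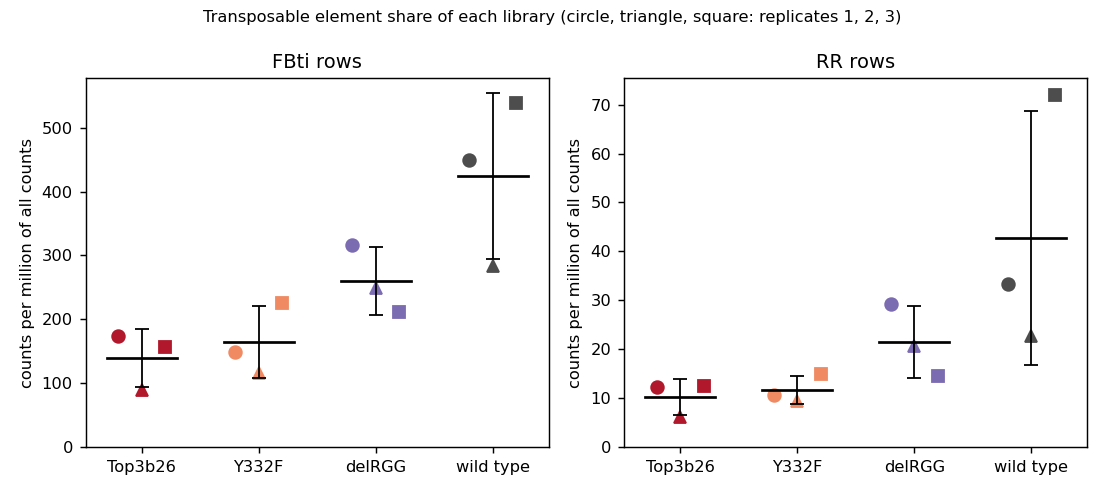
Share of each library's counts held by FBti rows and by RR rows, in raw CPM; points are libraries and bars show the mean and SD of 3. The Top3b26 and Y332F points lie below all wild-type points for both classes, and delRGG overlaps wild type.

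The lower total was spread over many rows rather than set by a few, but the families roo and INE-1 held part of it. Without these families the FBti share was 0.425, 0.452 and 0.662 times wild type in Top3b26, Y332F and delRGG. With them it was 0.329, 0.386 and 0.611. Copies of the same family share reads, so their rows are not independent. The number of FBti and RR rows with at least 1 count was 1317, 689 and 1067 in Top3b26, 1164, 1021 and 1438 in Y332F, 1656, 1434 and 1241 in delRGG, and 1702, 1373 and 1895 in wild type. Summed over FBti and RR rows, the difference from wild type was -296.5 CPM in Top3b26, -271.1 in Y332F and -172.7 in delRGG. The 10 rows with the largest negative differences made up 17.9%, 19.6% and 23.4% of these differences. In Top3b26, 2159 rows had a lower mean than in wild type and 591 a higher one. In Y332F these numbers were 2122 and 691, and in delRGG 1971 and 908. Rows too low to be tested one by one had ratios to wild type of 0.322, 0.417 and 0.622 in Top3b26, Y332F and delRGG, next to 0.320, 0.347 and 0.588 for the tested rows.

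The orders of elements were lower to different degrees. FBti and RR rows of LTR retrotransposons together held 65.8, 70.1 and 134.3 raw CPM in Top3b26, Y332F and delRGG, against 228.4 in wild type, which is 0.288, 0.307 and 0.588 times wild type. DNA transposons held 35.3, 35.2 and 45.8 raw CPM against 68.9 in wild type, ratios of 0.513, 0.510 and 0.665. INE-1, the one Helitron family here, held 25.3, 43.5 and 60.0 raw CPM against 101.6 in wild type, ratios of 0.249, 0.429 and 0.591. Non-LTR retrotransposons lay between, at 0.345, 0.390 and 0.598 times the wild-type mean. Their wild-type libraries held 55.2, 40.2 and 103.0 raw CPM, and replicate 3 included the 692 counts of R2{}RR48361. The delRGG libraries held 51.2, 39.6 and 27.8 raw CPM of them. In each order delRGG overlapped wild type. For INE-1 so did Y332F, with 67.7 raw CPM in Y332F replicate 3 and 66.2 in wild-type replicate 2. The ratios compare sums over chosen rows and were not tested.

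Genes of late embryonic tissues moved with these shares. The mean log2 CPM of 20 markers of differentiated muscle, neurons and cuticle was 3.15, 1.79 and 2.03 in Top3b26, 3.66, 2.96 and 3.84 in Y332F, 6.38, 4.84 and 3.06 in delRGG, and 5.72, 6.21 and 7.45 in wild type. Top3b26 and Y332F lay below all wild-type libraries, as for the share of elements. Within each of Top3b26, Y332F and delRGG the marker level and the FBti share had the same order of libraries. Within wild type the orders differed, replicate 2 having the lowest share and replicate 1 the lowest marker level. All 20 markers fell in Top3b26 and in Y332F and 0 of 20 were called in delRGG in the edgeR test described next, where 3 of 20 had an unadjusted p under 0.05 and the median log2 fold change was -1.42. Of 14 markers of the early embryo, 3 rose and 2 fell in Top3b26, 2 rose and 0 fell in Y332F, and 0 were called in delRGG, where 1 had an unadjusted p under 0.05. Genotype and this marker level cannot be told apart between Top3b26 or Y332F and wild type, and the part of the marker level in the share of elements was not tested.

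**Figure D2:**
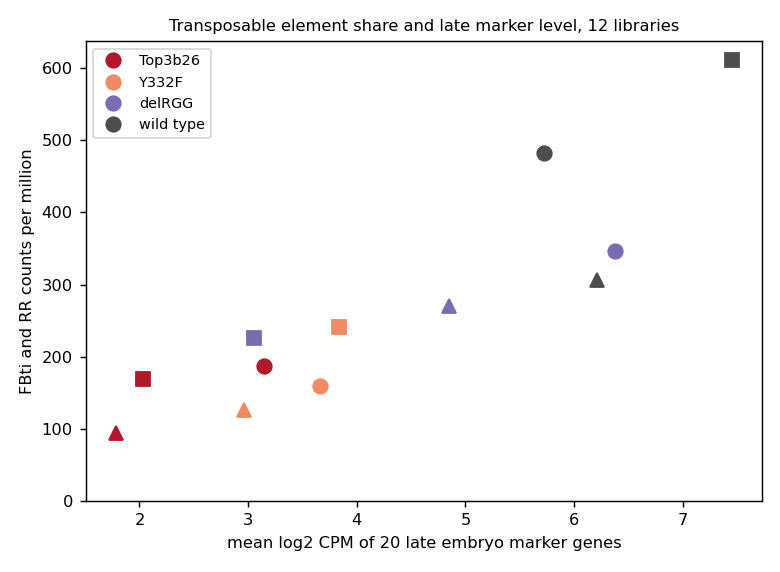
Share of FBti and RR rows together in each library (raw CPM) against the mean log2 CPM of the 20 late markers, with 1 point per library and colours for genotype. The lowest point is Top3b26 replicate 2 (94.5 raw CPM at 1.79) and the highest is wild-type replicate 3 (611.4 at 7.45).

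Single insertions were tested with edgeR's quasi-likelihood test over all 10238 rows with enough counts, and a row was called at a Benjamini-Hochberg adjusted p under 0.05 over all of them. Only 237 element rows had enough counts, 222 FBti and 15 RR, and these held 57.4% of FBti and 70.4% of RR counts. In Top3b26, 9 rose and 145 fell (65.0% of 237), with a median log2 fold change of -2.0. Of all tested rows 57.1% were called in this comparison, 23.5% as higher and 33.7% as lower, and their median was -0.04. In Y332F, 4 rose and 100 fell (43.9%), with a median of -1.42, where 43.5% of all tested rows were called, 15.3% as higher and 28.2% as lower. In delRGG, 3 rose and 18 fell (8.86%), with a median of -0.65, where 5.87% of all tested rows were called, 3.17% as higher and 2.7% as lower. All 3 comparisons share the wild-type libraries. The count for Y332F was 67 without Y332F replicate 1, 53 without Y332F replicate 2 and 58 without wild-type replicate 3. With the late marker level as a covariate the counts were 8 in Top3b26, 12 in Y332F and 21 in delRGG, and the medians -0.93, -0.69 and -0.35.

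Which rows could be tested depended on the wild type. Of the 237, 150 reached the minimum level of 0.396 CPM in all 3 wild-type libraries, against 27 in Top3b26, 40 in Y332F and 73 in delRGG. For 21 rows only wild-type libraries reached it, for 3 only Top3b26 libraries and for 3 only delRGG libraries, so the entry of these rows into the test already required a difference. The Top3b26 rows were transib3{}4416, pogo{}4759 and pogo{}812, and the delRGG rows were HeT-A{}4795, HeT-A{}6262 and INE-1{}3191. Their higher values, like the lower values of the 21, are given as a description. The counts above describe the 237 tested rows and not all insertions. The 15 rows at or above this level in all 12 libraries had smaller median log2 fold changes of -0.91 in Top3b26, -0.66 in Y332F and -0.50 in delRGG. Of these 15, 1 rose and 7 fell in Top3b26, 0 rose and 5 fell in Y332F, and 0 rose and 2 fell in delRGG. Where a genotype held 1 to 3 counts of a row in all, its ratio is given with an exact interval for counting error alone.

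Falls were called in both classes of rows. In Top3b26, 135 of 222 FBti rows and 10 of 15 RR rows fell. In Y332F these were 92 and 8, and in delRGG 15 and 3. All rises were FBti rows, 9 in Top3b26, 4 in Y332F and 3 in delRGG. The difference between the classes was not tested. Lower calls made up 33.7%, 28.2% and 2.7% of all tested rows in Top3b26, Y332F and delRGG.

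**Figure D3:**
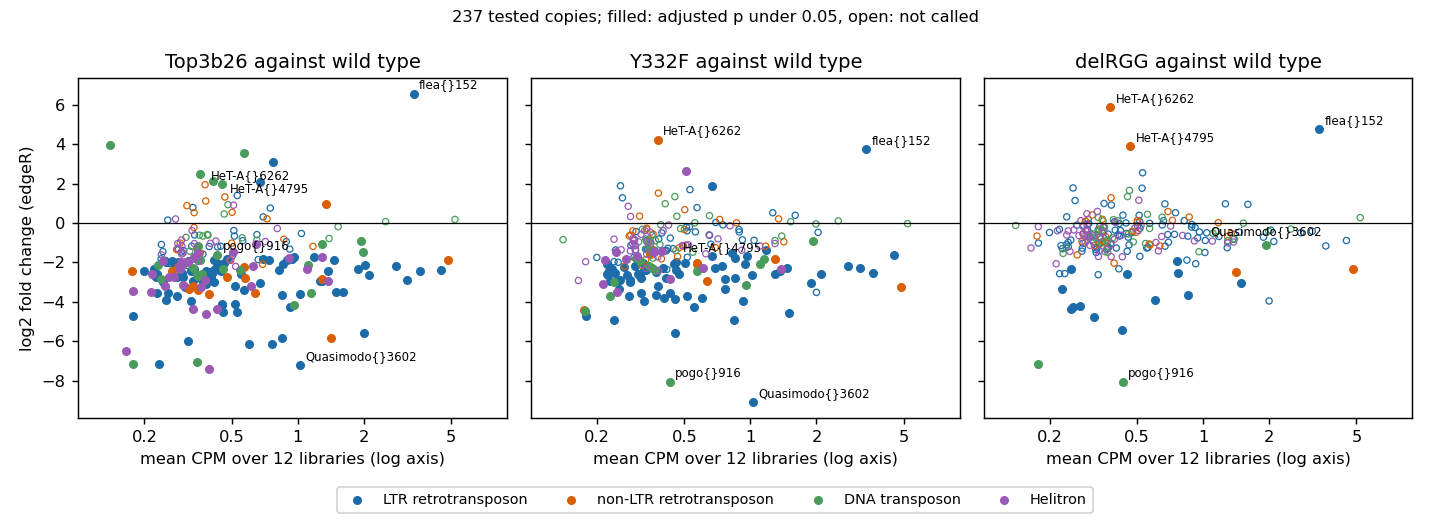
Log2 fold change against wild type of each of the 237 tested FBti and RR rows (vertical axis) by its mean CPM over all 12 libraries (log axis), coloured by order of element, in the 3 mutants; filled points have an adjusted p under 0.05. In Top3b26 and Y332F most points lie below 0 (medians -2.0 and -1.42), and in delRGG the median is -0.65.

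Among LTR retrotransposons, 79 of 114 tested copies fell in Top3b26, 68 in Y332F and 13 in delRGG. Beside this, 33.7%, 28.2% and 2.7% of all tested rows were called lower in the same order. The roo family, the most often tested, had 53 such copies, of which 38 fell and 1 rose in Top3b26, 39 fell and 1 rose in Y332F and 2 fell in delRGG. The most counted falling roo insertion, roo{}283 (FBti0019100), had 75, 11 and 37 counts in Top3b26, 39, 28 and 37 in Y332F, 102, 96 and 93 in delRGG, and 237, 115 and 239 in wild type. The libraries of each mutant lay under those of wild type, and the log2 fold changes were -2.43 (SE 0.48, edgeR adjusted p 0.003) in Top3b26, -2.55 (SE 0.49, 0.0055) in Y332F and -1.17 (SE 0.46, 0.18) in delRGG. Further roo copies, roo{}1708 and roo{}1665, gave -2.16 and -2.63 in Top3b26 and -2.16 and -2.59 in Y332F, with edgeR adjusted p between 0.0029 and 0.021. The related rooA{}1496 (FBti0020410) fell in Top3b26 (log2 -2.39, edgeR adjusted p 0.0037) and Y332F (-1.64, 0.022) and was at -0.89 in delRGG (0.28). Summed over its FBti copies, roo was at 18.2 ± 11, 18.6 ± 4.1 and 48.9 ± 3.8 CPM in Top3b26, Y332F and delRGG, against 91.6 ± 34 CPM in wild type (SD, n = 3 each). The sum fell by 2.32 on the log2 scale in Top3b26 and by 2.30 in Y332F (edgeR adjusted p 0.0028 and 0.0056), and was at -0.90 in delRGG (0.24).

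The LTR family blood was lower in all 3 mutants, delRGG included. All 6 of its tested copies were called lower in each mutant, but 4 of the 6 reached the minimum level in wild-type libraries only. The others, blood{}1092 and blood{}RR48405, reached it in all 3 libraries of wild type only. All 6 thus entered the test through wild type, and their lower values are given as a description. Its FBti copies together had 39, 11 and 28 counts in Top3b26, 48, 24 and 36 in Y332F, 22, 15 and 8 in delRGG, and 171, 193 and 349 in wild type. The lowest wild-type library thus lay above every mutant library. The log2 fold changes of the sum were -3.27 (SE 0.47) in Top3b26, -2.69 (SE 0.46) in Y332F and -4.10 (SE 0.49) in delRGG, with edgeR adjusted p of 0.00071, 0.0026 and 0.00081. With the late marker level as covariate the sum was at -1.37 in Top3b26, -1.31 in Y332F and -3.38 in delRGG (edgeR adjusted p 0.32, 0.18 and 0.00042), so it was called in delRGG only. Single copies had the same pattern: blood{}280 had 2, 0 and 0 counts in Top3b26, 3, 1 and 7 in Y332F and 5, 4 and 2 in delRGG, against 43, 42 and 70 in wild type. The row blood{}RR48405 had 7, 2 and 7 counts in Top3b26, 10, 9 and 9 in Y332F and 12, 5 and 0 in delRGG, against 39, 49 and 107 in wild type. It was called in all 3 mutants (log2 -3.66, -2.81 and -3.67, edgeR adjusted p 0.0046, 0.017 and 0.024). In delRGG, blood{}1092 had 1, 1 and 0 counts against 25, 26 and 43 in wild type, 0.0191 times wild type with a 95% counting interval of 0.00228 to 0.0709 (edgeR adjusted p 0.0055).

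Further LTR families fell in both Top3b26 and Y332F. The 3S18 sum had log2 fold changes of -4.36 in Top3b26 and -4.14 in Y332F (edgeR adjusted p 0.0012 and 0.0025), and -1.69 in delRGG (0.13). The accord sum had -3.92 in Top3b26 and -5.51 in Y332F (edgeR adjusted p 0.0029 and 0.0023), and -2.52 in delRGG (0.059). Its copy accord{}818 had 3, 2 and 1 counts in Top3b26, 1, 0 and 1 in Y332F and 14, 4 and 2 in delRGG, against 20, 30 and 59 in wild type. This copy was called lower in delRGG as well (log2 -2.61, edgeR adjusted p 0.049), but it entered the test through wild type only. The copy 3S18{}3955 had 1, 2 and 0 counts in Top3b26, 2, 2 and 2 in Y332F and 34, 20 and 4 in delRGG, against 39, 39 and 113 in wild type. The roo copy roo{}1034 was low in every mutant library, with 1, 0 and 0 counts in Top3b26, 3, 2 and 2 in Y332F and 1, 1 and 1 in delRGG, against 29, 16 and 38 in wild type. It reached the minimum level in wild-type libraries only, as did blood{}280. The rooA sum fell in Top3b26 (log2 -2.26, edgeR adjusted p 0.0025) and Y332F (-1.55, 0.015). For diver2 the fall was called in Top3b26 (log2 -2.09, edgeR adjusted p 0.0017), where diver2{}5706 had 18, 13 and 21 counts, against 78, 74 and 65 in wild type. In Y332F that row had 53, 45 and 64 counts and in delRGG 50, 63 and 73, and the diver2 sum was at -0.59 (0.17) and -0.41 (0.44). All 4 tested copies of 412 fell in Top3b26 and in Y332F, and 2 of them reached the minimum level in wild-type libraries only. All 4 of copia fell in Top3b26 and 1 of them in Y332F.

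The flea family is also an LTR family, and 1 of its insertions was an exception. The row flea{}152 (FBti0019077) had 269, 209 and 235 counts in Top3b26, 37, 38 and 26 in Y332F and 77, 86 and 58 in delRGG, against 2, 1 and 4 in wild type. All mutant libraries lay above all wild-type libraries, at 9.36 ± 0.64, 1.33 ± 0.25 and 2.72 ± 0.52 CPM against 0.0941 ± 0.057 (SD, n = 3 each). The log2 fold changes were 6.55 (SE 0.44) in Top3b26, 3.74 (SE 0.42) in Y332F and 4.77 (SE 0.42) in delRGG, with edgeR adjusted p of 4.1e-06, 0.00033 and 0.00012. It was also the row with the largest rise in CPM in each mutant. Of the other rows, roo{}850 rose in Top3b26 and Y332F (log2 2.07 and 1.87, edgeR adjusted p 0.0056 and 0.015). The family sum rose in Top3b26 (log2 1.16, edgeR adjusted p 0.0019), but without flea{}152 it was at -1.90 (adjusted p 0.0027), so that the rest of the family fell.

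**Figure D4:**
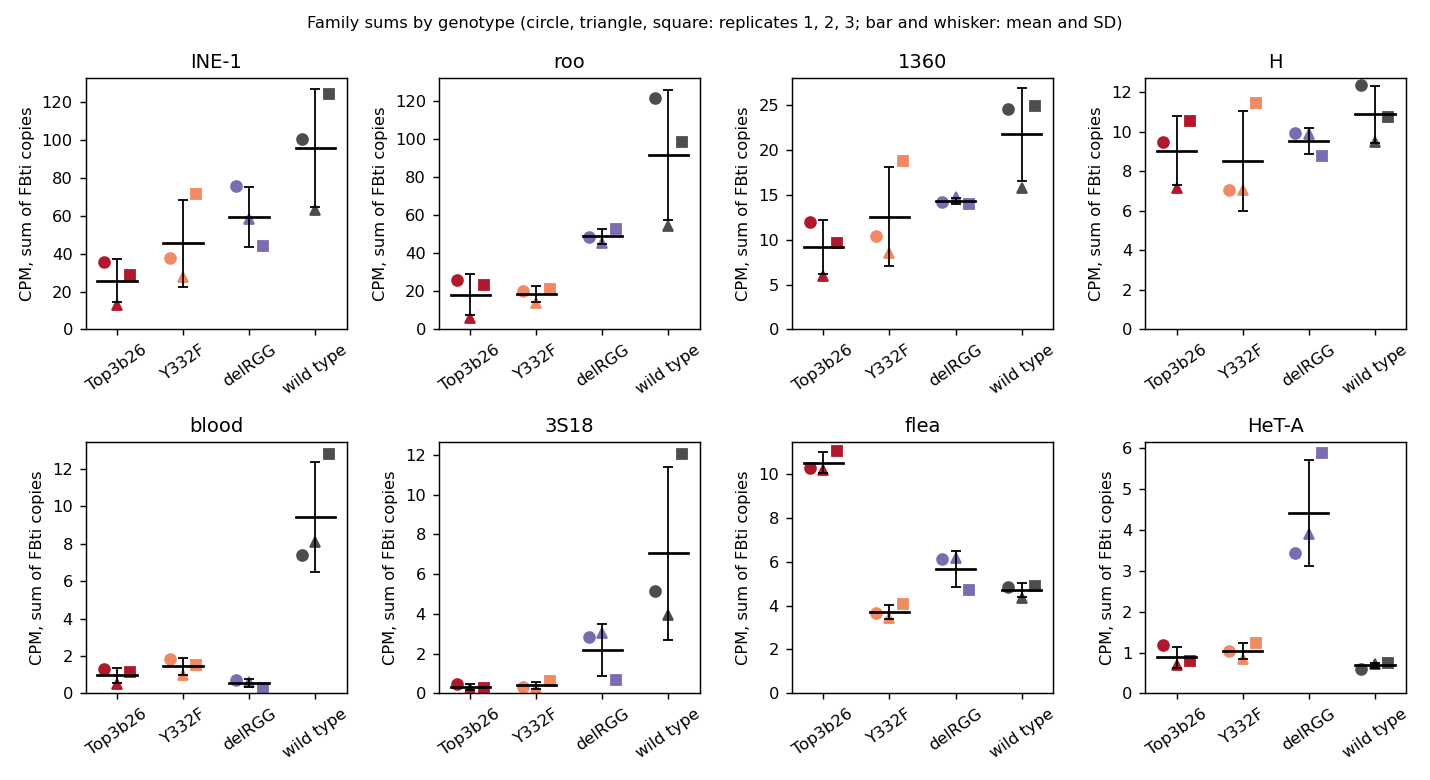
Summed CPM of the FBti copies of 8 families in each library; bars and whiskers are the mean and SD of 3 libraries. The blood points of all mutant libraries lie under those of wild type, the roo means are lowest in Top3b26 and Y332F, and HeT-A is highest in the 3 delRGG libraries.

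Among DNA transposons, 22 of 42 tested copies fell and 5 rose in Top3b26, 14 fell and 0 rose in Y332F, and 3 fell and 0 rose in delRGG. Lower calls made up 33.7%, 28.2% and 2.7% of all tested rows in the same order, and higher calls 23.5%, 15.3% and 3.17%. The family 1360 had 17 tested copies, of which 10 fell in Top3b26, 6 in Y332F and 1 in delRGG, and its sum fell in Top3b26 (log2 -1.24, edgeR adjusted p 0.0089). The HB sum fell in Top3b26 (log2 -1.98, edgeR adjusted p 0.0059) and Y332F (-1.48, 0.025), while the sums of H and FB were called in no mutant (log2 -0.88 to -0.19). The most counted copy of 1360, 1360{}3897, was not called in any mutant and had 103, 43 and 66 counts in Top3b26, 56, 47 and 104 in Y332F and 48, 46 and 72 in delRGG, against 69, 47 and 71 in wild type. The most counted FBti row of all, H{}84 (FBti0019603), a copy of the hobo element, was likewise not called in any mutant. It had 182, 82 and 164 counts in Top3b26, 101, 92 and 161 in Y332F and 186, 161 and 128 in delRGG, against 138, 95 and 119 in wild type. The log2 fold changes were 0.18, -0.04 and 0.27, each with an SE of 0.31. Among the 10 most counted FBti rows, H{}84 and 1360{}3897 were the 2 called in no comparison with wild type.

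A transib3 copy and the pogo copies pogo{}4759 and pogo{}812 were higher in Top3b26. The row transib3{}4416 (FBti0062477) had 46, 55 and 44 counts in Top3b26, 0, 0 and 2 in Y332F and 4, 4 and 3 in delRGG, against 4, 4 and 4 in wild type. It reached the minimum level in Top3b26 libraries only, where it was higher than in wild type by 3.53 on the log2 scale, and it was lower in Y332F, at 0.161 times wild type with a 95% counting interval of 0.0175 to 0.723. The row pogo{}4759 had 32, 18 and 34 counts in Top3b26, 1, 1 and 2 in Y332F and 0, 5 and 3 in delRGG, against 7, 5 and 2 in wild type (log2 2.46 in Top3b26). It too reached the minimum level in Top3b26 libraries only. The less counted pogo{}812 had 13, 13 and 11 counts in Top3b26, against 2, 0 and 0 in wild type (log2 3.93). It had 1, 0 and 0 counts in Y332F and 0, 1 and 1 in delRGG, and also reached that level in Top3b26 libraries only. Another pogo insertion, pogo{}916 (FBti0020027), had 14, 11 and 7 counts in Top3b26 and 0 in all 6 Y332F and delRGG libraries, against 42, 19 and 34 in wild type. It reached the minimum level in all 3 libraries of wild type only. It was called lower in Top3b26 (log2 -1.63, edgeR adjusted p 0.032). Set against a floor of 3 counts per library, its level was lower by at least 10.9-fold in Y332F and by at least 11.7-fold in delRGG (edgeR adjusted p 0.0022 and 0.0037). The LTR copy 297{}518 (FBti0019237) was, like transib3{}4416, highest in Top3b26, at 85, 56 and 66 counts in Top3b26, 1, 0 and 1 in Y332F and 1, 1 and 2 in delRGG, against 8, 5 and 10 in wild type. This row reached the minimum level in all 3 libraries of Top3b26 only, so its entry into the test required high values there. It was called higher in Top3b26 (log2 3.08, SE 0.47, edgeR adjusted p 0.001) and lower in delRGG (log2 -2.55, 0.026). In Y332F it fell to 0.0840 times wild type, with a 95% counting interval of 0.00959 to 0.340 (edgeR adjusted p 0.0054).

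INE-1 copies fell in Top3b26 in 30 of 48 tested rows. In Y332F 11 fell and 1 rose, and in delRGG 0 were called, with 4 of 48 at an unadjusted p under 0.05. Lower calls made up 33.7%, 28.2% and 2.7% of all tested rows in Top3b26, Y332F and delRGG. INE-1 copies were above that share in Top3b26 only. The sum of all its FBti copies was at 25.8 ± 12, 45.5 ± 23 and 59.3 ± 16 CPM in Top3b26, Y332F and delRGG, against 95.8 ± 31 in wild type (SD, n = 3 each). It fell in Top3b26 (log2 -1.89, edgeR adjusted p 0.0047) and was at -1.07 in Y332F (0.053) and -0.69 in delRGG (0.31). The row that rose in Y332F was INE-1{}3583 (log2 2.65, edgeR adjusted p 0.011).

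Of 33 tested copies of non-LTR retrotransposons, 14 fell in Top3b26, 7 in Y332F and 2 in delRGG. Lower calls made up 33.7%, 28.2% and 2.7% of all tested rows in the same order. The non-LTR copies were thus under that share in Y332F and above it in Top3b26 and delRGG. The row F{}656 (FBti0018911) had 1, 2 and 1 counts in Top3b26, 54, 28 and 48 in Y332F and 19, 17 and 12 in delRGG, against 86, 64 and 93 in wild type. It fell in Top3b26 (log2 -5.84, SE 0.50, edgeR adjusted p 3e-05) and delRGG (-2.49, 0.0042) and was at -0.95 in Y332F (0.057).

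HeT-A, the element that maintains fly chromosome ends in place of telomerase, was higher in delRGG. Its FBti copies together had 36, 15 and 20 counts in Top3b26, 27, 21 and 29 in Y332F and 104, 98 and 151 in delRGG, against 14, 17 and 20 in wild type. Every delRGG library lay above all others. The sum rose in delRGG (log2 2.68, SE 0.36, edgeR adjusted p 0.0018; 2.53 with the late marker level as covariate, adjusted p 0.0031) and was at 0.38 in Top3b26 (0.37) and 0.60 in Y332F (0.18). HeT-A{}6262 (FBti0102105) had 1, 2 and 2 counts in Top3b26, 10, 8 and 8 in Y332F and 25, 22 and 40 in delRGG, against 0, 1 and 0 in wild type. It was higher in Y332F (25.1-fold, 95% counting interval 4.12 to 1029) and delRGG (78.1-fold, interval 13.7 to 3120). HeT-A{}4795 (FBti0062856) had 7, 5 and 7 counts in Top3b26, 1, 1 and 0 in Y332F and 38, 35 and 47 in delRGG, against 3, 3 and 1 in wild type, and was higher in delRGG (log2 3.88). Both copies reached the minimum level in delRGG libraries only, so their entry into the test required high values there. HeT-A copies are near-identical and sit in arrays, so the split between copies is uncertain.

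Over all families, 3 of 81 tested sums rose and 36 fell in Top3b26, 0 rose and 17 fell in Y332F, and 1 rose and 1 fell in delRGG. Thus 48.15%, 20.99% and 2.47% of the sums were called in Top3b26, Y332F and delRGG. The rises in Top3b26 were flea, transib3 (log2 2.23, edgeR adjusted p 0.0063) and the DNA element NOF (2.24, 0.0028), and the delRGG sums were HeT-A, which rose, and blood, which fell. The Cr1a sum, a non-LTR family, fell in Top3b26 (log2 -1.28, edgeR adjusted p 0.03). Of genes and family sums together, 56.9% were called in Top3b26 (24.3% higher, 32.6% lower), 46.6% in Y332F (20.1% higher, 26.6% lower) and 6.24% in delRGG (3.77% higher, 2.47% lower). With both directions pooled, the sums were thus called less often than all rows in each mutant. As lower, 44.44%, 20.99% and 1.235% of the sums were called in Top3b26, Y332F and delRGG. This was above the share of all rows in Top3b26 only. The median log2 fold change of the sums was -1.28 in Top3b26, -0.87 in Y332F and -0.46 in delRGG. In delRGG 15 sums had an unadjusted p under 0.05. Counts of called sums were 25 in Top3b26 without wild-type replicate 3, 9, 7 and 8 in Y332F without Y332F replicate 1, Y332F replicate 2 or wild-type replicate 3, and 5 in delRGG without delRGG replicate 1. These fits tested 81 to 85 sums. With the late marker level as covariate, 1 sum was called in Top3b26 (flea, higher) and 1 in Y332F (pogo, lower). In delRGG 1 sum was then called higher and 2 lower. The medians of the sums with this covariate were -0.08, -0.05 and -0.03 in Top3b26, Y332F and delRGG.

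R1 and R2, which insert into ribosomal RNA genes, were high in 1 library. R2{}RR48361, the most counted RR row, had 129, 52 and 87 counts in Top3b26, 39, 27 and 31 in Y332F and 84, 63 and 52 in delRGG, against 121, 112 and 692 in wild type. It was called lower in all 3 mutants (log2 -1.86, -3.26 and -2.33, edgeR adjusted p 0.02, 0.0058 and 0.046). Without wild-type replicate 3 it was at -0.54 in Top3b26 (edgeR adjusted p 0.19) and -1.02 in delRGG (0.15). In Y332F it was between -3.60 and -1.94 whichever replicate was left out. Most counts of 3 R1 rows were in the same library: R1A1{}1124 with 83 of 103 counts (80.6%), R1{}RR48395 with 57 of 83 (68.7%) and R1A1{}582 with 51.9%. The 136 rRNA rows held 0.00914%, 0.0222% and 0.00814% of the counts of the wild-type libraries, so wild-type replicate 3 was the lowest of the 3 there. A copy of roo, roo{}4147 (FBti0062208), had 466 of its 580 counts in wild-type replicate 1. It was at -5.61 in Top3b26 (edgeR adjusted p 0.018), and at -1.62 without that library (0.28).

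The remaining highly counted RR rows were LTR elements. roo{}RR48370 had 35, 5 and 25 counts in Top3b26, 26, 32 and 36 in Y332F and 141, 109 and 117 in delRGG, against 149, 69 and 228 in wild type. It fell in Top3b26 (log2 -2.91, edgeR adjusted p 0.0026) and Y332F (-2.27, 0.011) but was at -0.42 in delRGG. 1731{}RR48331 had 1, 0 and 1 counts in Top3b26, 11, 5 and 7 in Y332F and 20, 13 and 13 in delRGG, against 52, 36 and 71 in wild type. It fell in Top3b26 to 0.0119 times wild type (95% counting interval 0.00143 to 0.0438, edgeR adjusted p 9.9e-05), and in Y332F and delRGG by 2.82 and 1.94 on the log2 scale (0.0032 and 0.031). gypsy{}RR48375 had 5, 2 and 4 counts in Top3b26, 39, 29 and 53 in Y332F and 126, 48 and 13 in delRGG, against 15, 21 and 47 in wild type, and fell in Top3b26 (log2 -2.95, edgeR adjusted p 0.008). It was at 0.52 in Y332F (0.54) and 0.97 in delRGG (0.36).

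A few insertions were counted in some genotypes and not in others. There were 6 with 0 counts in all 3 libraries of a genotype and at least 10 in every library of another: 4 at 0 in Top3b26, 2 in Y332F, 2 in delRGG and 0 in wild type, with pogo{}916 and 1360{}94 at 0 in a pair of mutants each. Quasimodo{}3602 (FBti0061663), an LTR copy, had 0, 0 and 1 counts in Top3b26, 0 in every Y332F library and 61, 40 and 18 in delRGG, against 59, 28 and 110 in wild type. It fell in Top3b26 to 0.00482 times wild type (95% counting interval 0.000121 to 0.0272, edgeR adjusted p 0.0011) and was at least 22.2-fold lower in Y332F (0.0015). In delRGG it was at log2 -0.89 (0.39). INE-1{}3470 had 0 counts in every Top3b26 library, 6, 10 and 7 in Y332F and 12, 12 and 13 in delRGG, against 19, 12 and 29 in wild type. HB{}1219 and flea{}114 were the other rows at 0 in Top3b26. Of the rows named here, flea{}114 and 1360{}94 reached the minimum level in wild-type libraries only. Whether each stock carries these insertions in its DNA was not measured.

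**Figure D5:**
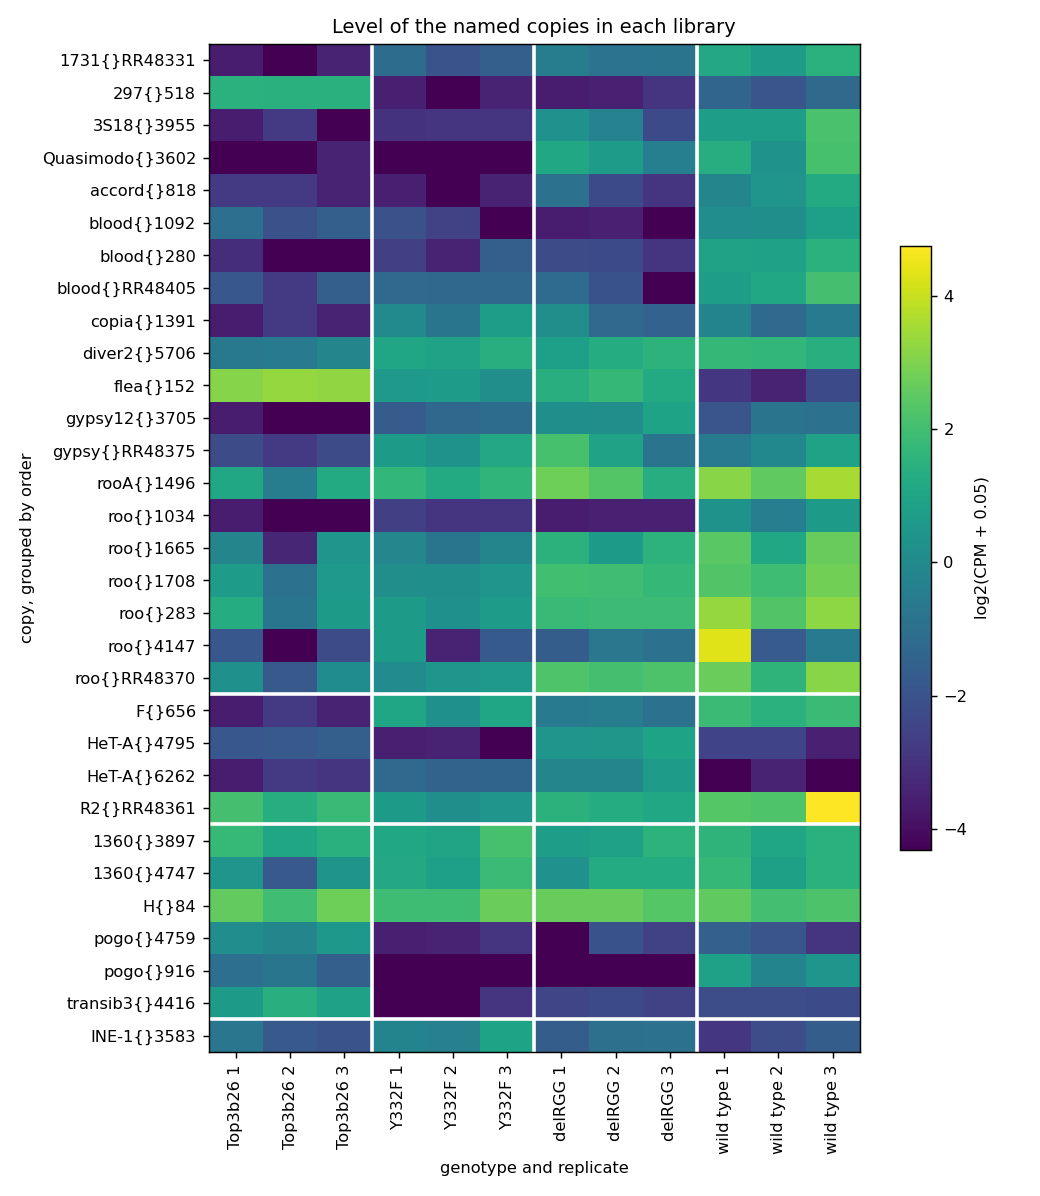
Heat map of the named insertions (rows, grouped by order) in the 12 libraries (columns), coloured by log2(CPM + 0.05). flea{}152 is higher in all mutant libraries than in wild type, 297{}518 and transib3{}4416 are highest in Top3b26, and Quasimodo{}3602 is high in delRGG and wild type.

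Between mutants, few insertions differed between Y332F and Top3b26. In that comparison 11 rose and 7 fell of 237 (7.59%), where 7.27% of all tested rows were called, 3.15% as higher and 4.11% as lower. F{}656 was higher in Y332F than in Top3b26 (log2 4.89, SE 0.49, edgeR adjusted p 0.00011), as was copia{}1391 (4.16, 0.0061), at 25, 13 and 40 counts in Y332F and 1, 2 and 1 in Top3b26. 297{}518 and transib3{}4416 were lower in Y332F, at 0.00983 and 0.0140 times Top3b26 (95% counting intervals 0.00118 to 0.0360 and 0.00168 to 0.0516, with an edgeR adjusted p of 8e-05 for 297{}518). Both of these rows entered the test through Top3b26 only. In delRGG against Top3b26, 51 rose and 12 fell (26.6%), where 28.3% of all tested rows were called, 17.3% as higher and 10.9% as lower, and the median was 1.29. The late markers moved with these rows, 19 of 20 being called higher in delRGG than in Top3b26 with a median of 2.96, and their part in the result was not tested beyond the covariate, with which 21 rows were called. The count without the covariate was 32 of 330 tested rows without Top3b26 replicate 2 and 33 of 328 without Top3b26 replicate 3. It was 37 of 302 without delRGG replicate 1 and 102 of 328 without delRGG replicate 3. gypsy12{}3705 (FBti0061766) had 33, 28 and 48 counts in delRGG and 1, 0 and 0 in Top3b26 (103.1-fold, 95% counting interval 18.1 to 4110.0, edgeR adjusted p 0.00038). In delRGG against Y332F, 5 rose and 0 fell (2.11%), where 2.46% of all tested rows were called, 1.29% as higher and 1.17% as lower. Here 64 rows had an unadjusted p under 0.05, and the count was 2 without Y332F replicate 1 or 2, 3 without delRGG replicate 1 or 2, and 17 without delRGG replicate 3. Quasimodo{}3602 was higher in delRGG by at least 12.0-fold (edgeR adjusted p 0.0069), and HeT-A{}4795 by 55.8-fold (95% counting interval 15.1 to 466.0), a row that entered the test through delRGG only. The other rises were roo{}1598, roo{}319 and roo{}952 (log2 2.34 to 3.00).

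Genes that silence transposable elements were described from a list of 40, of which 38 were in the table and 37 were tested. In Top3b26 16 rose and 2 fell, in Y332F 9 rose and 5 fell, and in delRGG 4 rose and 5 fell. Of the 37, 48.6%, 37.8% and 24.3% were called, where 57.1%, 43.5% and 5.87% of all tested rows were called in the same comparisons. The medians of their log2 fold changes were 0.26, 0.06 and 0.05, beside -0.04 for all tested rows in Top3b26. piwi (FBgn0004872), the nuclear Piwi protein, was at 266.0 ± 16.2, 286.1 ± 33.6 and 268.7 ± 57.8 CPM in Top3b26, Y332F and delRGG, against 183.7 ± 14.2 in wild type (SD, n = 3 each). It rose in all 3 (log2 0.53, 0.64 and 0.55, edgeR adjusted p 0.0083, 0.0089 and 0.044). qin, a Tudor protein of the same pathway, rose as well (log2 0.77, 0.97 and 1.09), and so did arx, a partner of Piwi in the nucleus (1.13, 0.60 and 0.85). AGO2, the Argonaute of the small interfering RNA pathway, fell in all 3 (log2 -0.28, -0.26 and -0.57). These are mRNA levels, and the small RNAs themselves were not measured.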

How the data were processed

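For 12 total RNA libraries the authors deposited a table of raw counts, whole numbers without normalization, with rows for genes and for transposable element insertions. The submitters' processing notes list bcl2fastq, HISAT2, featureCounts and DESeq2. Their versions, the genome build, the annotation release, the strand setting and the treatment of reads matching several places are not given in the sources used here. Trizol extraction and a Lexogen CORALL kit for total RNA, read as pairs, are given per the labels' protocols. The labels do not say that replicates came from separate collections, so p-values measure the spread between these samples, which may be technical. Column totals were 22400118 to 31125584. The immunoprecipitation table of 9 further samples held FBgn rows only and was not used.

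Groups came from sample titles. The test was edgeR's quasi-likelihood test (edgeR 4.0.16, R 4.3.3) after filterByExpr with a minimum count of 10 and TMM, with all 12 libraries in 1 fit and genotype as the only term. Benjamini-Hochberg adjustment ran over all 10238 rows, or 10082 rows where the FBti copies were summed by family. SE is the log2 fold change divided by the square root of F. CPM values use TMM-scaled library sizes, while shares use all counts of a library. Family names came from a supplied table of FlyBase symbols and orders from a list written by hand. Folds against a group at 0 use a floor of 3 counts per library, and ratios for rows with 1 to 3 counts in a genotype carry exact 95% binomial intervals; both cover counting error alone. The members and lists were chosen with earlier results of these data known.

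Insertions named were the 10 FBti and 5 RR rows with the highest mean CPM, up to 4 largest rises and falls per mutant and 2 between mutants, and families by a like rule (called, groups not overlapping, mean of at least 1 CPM in the higher group). Rows at 0 in 1 genotype, rows mostly in 1 library and counts of copies per family were chosen after their values were seen. Alternatives were other normalizations, DESeq2 1.42.0 without independent filtering, other filters, the compared groups alone, a replicate block, a late marker covariate, a 2-fold minimum and each replicate left out. The fits were tested on simulated data. Figures were drawn with matplotlib 3.10.9.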

Additional observations from a re-analysis of the deposited data

How the results depend on the processing

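Single insertions are thinly counted, so called numbers followed the count filter and the libraries used. When a mean of 50 counts was required, only 11 copies were tested. Of these, 8, 7 and 2 were called in Top3b26, Y332F and delRGG against wild type. Between mutants there were 2 for Y332F over Top3b26, 5 for delRGG over Top3b26 and 0 for delRGG over Y332F by edgeR. In the last of these, 4 of 11 rows had an unadjusted p under 0.05. Called family sums were then 18, 9 and 1 of 22. Without a filter, 309 of 3244 copies were called in Top3b26 and 161 in Y332F. With only the compared groups in the fit, the filter kept fewer copies. Then 98 of 147 were called in Top3b26, 7 of 207 in delRGG and 11 of 69 between Y332F and Top3b26. Between delRGG and Top3b26 20 of 101 were called, and between delRGG and Y332F 2 of 113. With the late marker level as covariate, 8 copies were called in Top3b26, 12 in Y332F, 21 between delRGG and Top3b26 and 9 between delRGG and Y332F, and 1 family sum each in Top3b26 and Y332F. DESeq2 called 11 copies between delRGG and Y332F. Without the 10 most counted RR rows the RR share was 0.000416%, 0.000476% and 0.000777% in Top3b26, Y332F and delRGG, against 0.00143% in wild type. Leaving out 1 replicate gave 110 to 187, 53 to 119 and 15 to 24 copies for the mutants against wild type, 14 to 17, 32 to 102 and 2 to 17 between mutants, and 25 to 45, 7 to 23 and 2 to 5 family sums. It gave FBti shares of 0.0122% to 0.0165% in Top3b26, 0.0132% to 0.0187% in Y332F, 0.0231% to 0.0283% in delRGG and 0.0367% to 0.0495% in wild type. RR shares were 0.000916% to 0.00123%, 0.00101% to 0.00128% and 0.00176% to 0.00250% in Top3b26, Y332F and delRGG, against 0.00280% to 0.00526% in wild type. Equal replicate numbers did not pair the libraries (in no comparison were all 3 correlations of same-numbered libraries over 0.1; Top3b26 with wild type gave -0.34, 0.52 and -0.06). The replicate block gave 154, 101, 18, 17, 69 and 5 copies in the order above and 43, 18 and 3 family sums. Signs turned in Top3b26 with the late marker covariate for R2{}RR48361 (log2 0.43), gypsy{}RR48375 (0.67) and the Cr1a sum (0.020), and without its most counted copy for flea (-1.90); the cause of the first 3 was not tested. Among the single values of named rows, 1336 kept direction and side of the threshold, 98 lost the call (43 of them with the covariate, 12 without wild-type replicate 3) and 21 gained it. The call of 1360{}4747 in Top3b26 (log2 -1.46, edgeR adjusted p 0.049) was lost whichever replicate was left out.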
